A study of Mus musculus with 21 samples.

Results

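The comparison described here set mouse intestinal organoids treated with compound 6 against vehicle-treated organoids, on the arrays whose titles carry the letters D, E, F and G. Members were the 4 compound 6 arrays and the 4 vehicle arrays with those letters, 8 of the 21 arrays of the series, and they were paired by letter. Compound 6 was given at 2 µM for 24 h in medium with doxycycline, and the vehicle cultures had doxycycline without compound for the same time. Where stated, 4 arrays of organoids from which doxycycline had been taken away for 24 h (letters D to G), and 3 arrays of compound 2 at 2 µM for 24 h with doxycycline and their 3 vehicle arrays (letters A to C), were set beside them. All cultures came from small-intestinal crypts of mice made from KH2 embryonic stem cells and crossed to C57BL/6-J. Every culture carried M2-rtTA, a doxycycline-dependent activator, under the endogenous ROSA26 promoter. Every culture also carried a human myc-tagged beta-catenin without its N-terminal part, driven by a minimal CMV promoter with tetracycline operators. The medium held EGF, Noggin and R-spondin 1 in every group, so Wnt signalling was also fed from outside the transgene. The labels do not say whether the letters are separate cultures, passages or animals, so a p-value here covers no more than the array-to-array spread, which may be technical.

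Beta-catenin carries the Wnt signal to the nucleus, where it binds TCF/LEF factors on target genes. In the intestinal crypt this keeps stem cells in place and the progenitors dividing. CDK8 and CDK19 are alternative kinases of a module that docks, with cyclin C, MED12 and MED13, on the Mediator complex and tunes its contact with RNA polymerase II. According to the series' design text, compounds 2 and 6 are close analogues that inhibit both kinases. NRF2, encoded by Nfe2l2, is a factor that KEAP1 holds at low levels. When released it binds antioxidant response elements with small MAF proteins, at genes that make glutathione, reduce quinones and carbonyls, and supply NADPH.

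RNA was labelled with Cy3 and hybridised with a Cy5-labelled Universal Mouse Reference RNA, so each level is a log2 ratio of sample over reference and has no meaning between probes. On the 8 arrays 42.6% to 46.5% of spots stood well above background in Cy3, and their number limits the precision. In a principal component analysis of the 8 arrays the first axis held 57.1% of the variance. The compound 6 arrays of letters D, E and G lay at -16.7 to -9.17 on it and that of letter F at -46.4. The vehicle arrays of letters D, E and G lay at 31.3 to 37.9, but that of letter F lay at -20.3, within the range of the compound 6 arrays. On the second axis (24.4%) the vehicle array of letter F lay at -37.7, outside the range of the compound 6 arrays (-8.09 to 24.3). Results that rest on the vehicle array of letter F are therefore given with and without letter F. All 12 epithelial markers passed the detection filter, with a median level of 4.31 to 4.56 on the compound 6 arrays and 4.43 to 4.55 on the vehicle arrays. Between the groups 2 of them rose, 3 fell and 7 did not pass an adjusted p of 0.05. That is 41.7% called, against 41.3% of all genes, with a median change of 0.002. Epcam had the largest fall, of 0.34 ± 0.07. In whole cultures, fewer cells of a type and less RNA per cell cannot be told apart.

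Of 21372 genes tested, 8827 (41.3%) passed an adjusted p of 0.05 between compound 6 and vehicle in the limma model with the letter as a block. Of these, 3725 genes (17.4%) were higher with compound 6 and 5102 (23.9%) lower, and the median change of all genes was -0.035 on the log2 scale. Without the letter block 5306 genes passed, 2428 higher and 2878 lower. With letter F left out 9263 passed. Most changes were small: 194 genes (0.908%) passed and rose at least 2-fold, and 191 (0.894%) passed and fell at least 2-fold. The compound 6 arrays did not overlap the vehicle arrays for 1920 genes that were higher (8.98%) and 2331 that were lower (10.9%). The arrays lay on 3 slides that held both groups, and 7534 of the passing genes (85.4%) had the same direction on each of the 3 slides. This supports nothing further, since they passed on the same arrays. Within a slide the arrays set against each other were not all of the same letter, so these differences do not follow the pairs.

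The largest rises were in a carbonyl reductase, an aldo-keto reductase, the transcription factor Runx1, the growth factor Fgf18 and the limiting enzyme of glutathione synthesis. Cbr3, a carbonyl reductase (its probe at chr16:93691120-93691179 of mm9), had levels of 3.89, 3.89, 4.36 and 3.50 on the compound 6 arrays D to G, against 0.37, 0.57, 1.27 and 0.00 on the vehicle arrays. Every compound 6 array was higher than every vehicle array, and each letter gave a difference between 3.09 and 3.52. The mean change was 3.35 ± 0.12 on the log2 scale (n = 4 pairs, 10.2-fold, adjusted p = 2.91e-10). Here and elsewhere ± is the moderated standard error of the model fitted to all 21 arrays. It is not the standard error of the 4 letter differences, which can be wider or narrower. Runx1, a transcription factor that works with CBFB (probe at chr16:92605785-92605844), had 1.03, 1.17, 2.24 and 1.59 with compound 6, against -1.72, -1.80, -1.20 and -1.56 with vehicle. That is a change of 3.08 ± 0.11 (8.44-fold; adjusted p = 3.02e-10) with no overlap, and a further Runx1 probe rose by 2.36. Akr1b8, an aldo-keto reductase (chr6:34318338-34318397), had 1.23, 1.16, 2.07 and 0.93 with compound 6 and -2.02, -1.95, -0.62 and -2.06 with vehicle. It rose by 3.01 ± 0.16 (adjusted p = 1.01e-08), and letter F was the highest array in both groups.

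Fgf18, a secreted fibroblast growth factor (chr11:33017440-33017499), had 2.19, 2.12, 2.83 and 2.65 with compound 6 and -0.57, -0.88, 0.00 and -0.51 with vehicle, a change of 2.94 ± 0.10 (adjusted p = 1.36e-10). Gclc, the catalytic subunit of glutamate-cysteine ligase (chr9:77641296-77641355), had 4.22, 4.25, 4.75 and 4.02 with compound 6 and 1.20, 1.36, 1.88 and 1.04 with vehicle. Its letter differences spanned only 2.87 to 3.02, around a mean of 2.94 ± 0.11 (adjusted p = 3.63e-10). Next came the alcohol dehydrogenase gene Adh6a (2.52 ± 0.12), the fetal serum protein Afp (2.45 ± 0.11), the guanine deaminase gene Gda (2.31 ± 0.12) and the cytokine Il18 (2.14 ± 0.11). Cypt9 (2.56 ± 0.16) and Cypt1 (2.02 ± 0.12), of a family known from sperm heads, and the cytochrome gene Cyp3a41b (2.20 ± 0.14) belong to families of near-identical genes, and their probes may read several members. The reference channel was above background on 0 of the 8 arrays for Cypt9, Cypt1 and Cyp3a41b and on 3 of 8 for Adh6a, so the size of these ratios is uncertain. In the deposited matrix, the authors' normalised values of the same arrays, Adh6a had a change of -0.50 (adjusted p = 0.7), Cypt1 of 3.04 (adjusted p = 0.0635) and Cyp3a41b of 3.38 (adjusted p = 0.14). With the scanner's log ratio Adh6a had 0.28 (adjusted p = 0.306).

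The largest falls joined major urinary protein genes with crypt genes. Mup4, one of the lipocalins best known from liver and urine, had 0.78, 0.98, 2.96 and 1.24 with compound 6, against 3.60, 3.64, 5.66 and 4.18 with vehicle. The 4 letters fell by 2.66 to 2.94, and letter F was the highest in both groups. The mean change was -2.78 ± 0.17 (6.87-fold lower; adjusted p = 2.78e-08). Mup3 (-2.51 ± 0.25), Mup20 (-2.44 ± 0.25), Mup5 (-2.34 ± 0.18) and Mup9 (-2.29 ± 0.22) fell too. Mup20 had -0.79 (adjusted p = 0.336) with the deposited matrix and -0.83 (adjusted p = 0.312) with the scanner's log ratio, and Mup5 had -2.66 (adjusted p = 0.0717) with the matrix. These genes are near-identical copies that probes can share, and the reference channel was above background for Mup3, Mup5 and Mup9 on 0 of the 8 arrays. Zmat4, a zinc-finger gene whose reference channel was also above background on 0 of 8 arrays, had 0.76, 0.81, 0.20 and 0.65 with compound 6 and 2.28, 2.50, 2.35 and 2.74 with vehicle (-1.86 ± 0.13; adjusted p = 0.122 with the deposited matrix). Ascl2, Lgr5, Sp5 and Uhrf1, also among the 12 largest falls, are described with their pathways. Pla2g5, a secreted phospholipase, fell by 2.21 ± 0.24 on the log2 scale (0.33 at its other, dimmer probe, where it also fell), and Tspan12, a tetraspanin of Norrin signalling, by 2.06 ± 0.21. Within slides, where arrays were not paired by letter, the changes were 1.32 to 4.36 for the 12 largest rises and -3.85 to -0.655 for the 12 largest falls. This is a description, since the genes were chosen on the same arrays.

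**Figure D1:**
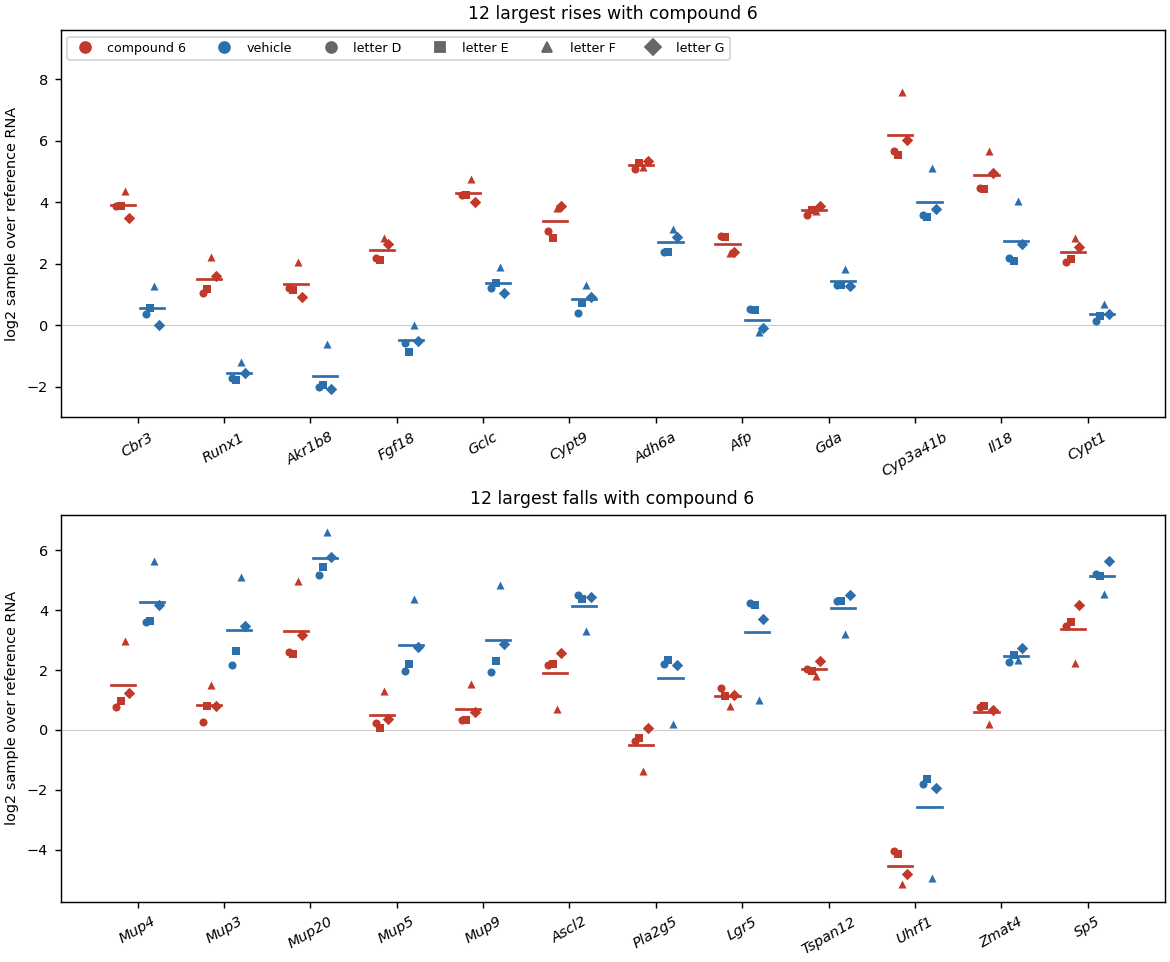
Levels (log2 sample over reference RNA, y axis) of the genes with the 12 largest rises and the 12 largest falls (x axis), compound 6 arrays in red to the left of vehicle arrays in blue; each point is an array, its shape the letter, and each bar the mean of 4. Cbr3 lies at 3.50 to 4.36 with compound 6 and at 0.00 to 1.27 with vehicle, while the vehicle array of letter F (triangle) lies at 1.00 for Lgr5, beside the compound 6 arrays.

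The plot of the largest rises and falls shows 2 kinds of gene. For Cbr3, Gclc, Fgf18 and Mup4 the letters differ in level but the difference within each letter is nearly the same. For Lgr5 and Uhrf1 the vehicle array of letter F is as low as the compound 6 arrays, so that letter gives almost no difference.

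Genes of glutathione and thioredoxin metabolism in the NRF2 pathway were mostly higher with compound 6. Of 30 tested, 22 rose, 1 fell and 7 did not pass (76.7% called, against 41.3% of all genes), with a median change of 0.48; without the block 20 rose and 0 fell, and without letter F 22 rose and 1 fell. The list median was 1.65 to 1.74 on the compound 6 arrays, above the vehicle arrays at 1.16 to 1.43, of which letter F was the highest. The regulator Nfe2l2 had 2.90, 2.78, 3.02 and 2.60 with compound 6, against 2.17, 2.16, 2.71 and 2.19 with vehicle. It rose by 0.52 ± 0.08 (adjusted p = 7.6e-05), and only the vehicle array of letter F reached into the compound 6 range. Keap1, its inhibitor, had a change of 0.04 with a 95% interval of -0.11 to 0.18 (adjusted p = 0.704). Mafg, a small MAF partner, rose by 0.82 ± 0.09.

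In glutathione synthesis, Gclc was joined by its modifier subunit Gclm, which had 3.46, 3.26, 3.80 and 3.33 with compound 6 and 2.12, 2.17, 2.61 and 2.31 with vehicle (1.16 ± 0.06; adjusted p = 1.26e-08). The arrays did not overlap, and the letters gave 1.02 to 1.34. Glutathione synthetase, Gss, rose by 0.45 ± 0.05. The cystine importer Slc7a11 rose by 1.08 ± 0.11 and was above background on 4 compound 6 arrays but on 1 vehicle array, so the size is uncertain. It was 2.90 with the deposited matrix. Glutathione reductase, Gsr, had 2.67, 2.66, 2.79 and 2.44 with compound 6 and 1.37, 1.32, 1.43 and 1.19 with vehicle. Its letter differences were 1.25 to 1.36, with a mean of 1.31 ± 0.08 (adjusted p = 2.88e-08). The quinone reductase Nqo1 rose by 1.03 ± 0.09, Osgin1, a growth inhibitor induced by oxidative stress, by 1.34 ± 0.10, and the epoxide hydrolase Ephx1 by 0.86 ± 0.07. In the thioredoxin branch, sulfiredoxin, Srxn1, rose by 0.81 ± 0.08 and thioredoxin reductase, Txnrd1, by 0.51 ± 0.07. The peroxiredoxin gene Prdx1 was the member that fell (-0.24 ± 0.07; -0.03 at its other probe, and not past the threshold without the block or with the deposited matrix). Hmox1, the haem oxygenase often read as an NRF2 target, had a change of 0.06 and did not pass at 1 probe, and rose by 0.28 at the other.

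Promoters of members were searched for the core of the antioxidant response element, TGACNNNGC, on both strands of the 250 bases before the start site in RefSeq's table (build GRCm38.p6). The core can contain the AP-1 site TGACTCA. It was present in 8 of the 26 tested NRF2-pathway members with a promoter in the table (30.8%), in 4 of 21 glutathione transferase genes (19.0%) and in 0 of 19 carbonyl and aldo-keto reductase genes, against 11.5% of 27018 genes and 10.2% of 32841 promoters. Of 11 genes listed for NADPH supply, 1 held the core (9.09%). Among the NRF2-pathway members that hold it, Prdx1 fell and Maff did not pass. A match is a description of the letters and not a bound site. The promoters of Gclm, Txnrd1 and Gsta3 are shown because these genes rose and hold the core, with the core in capitals. They cover chr3:122245307-122245556, chr10:82858956-82859205 and chr1:21240335-21240584, all on the plus strand, and the core begins at -134, -92 and -121 relative to the start.
Gclm: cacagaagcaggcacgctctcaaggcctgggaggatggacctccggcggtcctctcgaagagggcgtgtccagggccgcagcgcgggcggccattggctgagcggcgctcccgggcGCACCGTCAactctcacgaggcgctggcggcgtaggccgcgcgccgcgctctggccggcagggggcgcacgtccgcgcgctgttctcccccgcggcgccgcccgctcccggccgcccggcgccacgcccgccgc
Txnrd1: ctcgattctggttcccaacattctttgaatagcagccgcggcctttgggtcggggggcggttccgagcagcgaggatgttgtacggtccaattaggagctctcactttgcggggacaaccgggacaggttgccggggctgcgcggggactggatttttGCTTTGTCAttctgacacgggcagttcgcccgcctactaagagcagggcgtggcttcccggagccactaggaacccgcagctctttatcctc
Gsta3: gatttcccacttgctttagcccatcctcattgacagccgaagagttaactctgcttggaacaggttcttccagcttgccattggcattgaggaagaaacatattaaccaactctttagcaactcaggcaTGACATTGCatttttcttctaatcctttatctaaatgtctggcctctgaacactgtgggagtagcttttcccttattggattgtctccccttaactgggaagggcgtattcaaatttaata
In Gclm and Txnrd1 the match lies on the minus strand, so the capitals read as its reverse complement, and in Gsta3 it lies on the plus strand.

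Glutathione transferases, which couple glutathione to electrophiles, were next: of 23 tested, 14 rose, 1 fell and 8 did not pass, with a median change of 0.33. The mu-class gene Gstm4 had 5.93, 5.79, 6.17 and 5.94 with compound 6, against 3.75, 3.91, 4.37 and 3.85 with vehicle (1.99 ± 0.11; adjusted p = 1.08e-08). Its other probe rose by 0.91. Gstm1 (1.79 ± 0.10), the alpha-class gene Gsta3 (1.70 ± 0.10), Gstm2 (1.48 ± 0.07), the microsomal gene Mgst3 (0.89 ± 0.07) and the pi-class gene Gstp1 (0.84 ± 0.06) rose as well. Mu-class members are near-identical in sequence, so their probes may share signal. The theta and omega class genes Gstt1, Gstt2, Gsto1 and Gsto2 did not pass, with changes of -0.09 to 0.05, although the other probe of Gstt1 rose by 0.28.

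Among carbonyl and aldo-keto reductases 10 of 20 rose, 2 fell and 8 did not pass, with a median of 0.16. Besides Cbr3 and Akr1b8 these were led by Akr1c12 (0.85 ± 0.08), Ptgr1, which reduces leukotrienes and prostaglandins (0.80 ± 0.06), Akr1c13 (0.72 ± 0.07) and Cbr1 (0.70 ± 0.06). Cbr4 fell by 0.55 ± 0.07. Of 13 genes listed for NADPH supply, 5 rose, 2 fell and 6 did not pass (53.8% called, against 41.3% of all genes). The list includes Taldo1, whose enzyme does not itself make NADPH. Among those that rose were Pgd and G6pdx of the pentose phosphate pathway (0.97 ± 0.06 and 0.60 ± 0.08), malic enzyme Me1 (0.79 ± 0.07) and Idh1 (0.70 ± 0.08). Taldo1 rose too (0.27 ± 0.08, but not past the threshold without letter F). The mitochondrial transhydrogenase Nnt (-0.97 ± 0.08; -0.39 and -0.16 at its other probes) and the folate enzyme Mthfd1 (-0.90 ± 0.14) fell. Among alcohol and aldehyde dehydrogenases 9 of 19 rose, 3 fell and 7 did not pass, led after Adh6a by Adh7, which oxidises retinol (1.80 ± 0.13), and the retinal dehydrogenase Aldh1a1 (1.13 ± 0.07). Aldh7a1 fell by 0.79 ± 0.08.

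**Figure D2:**
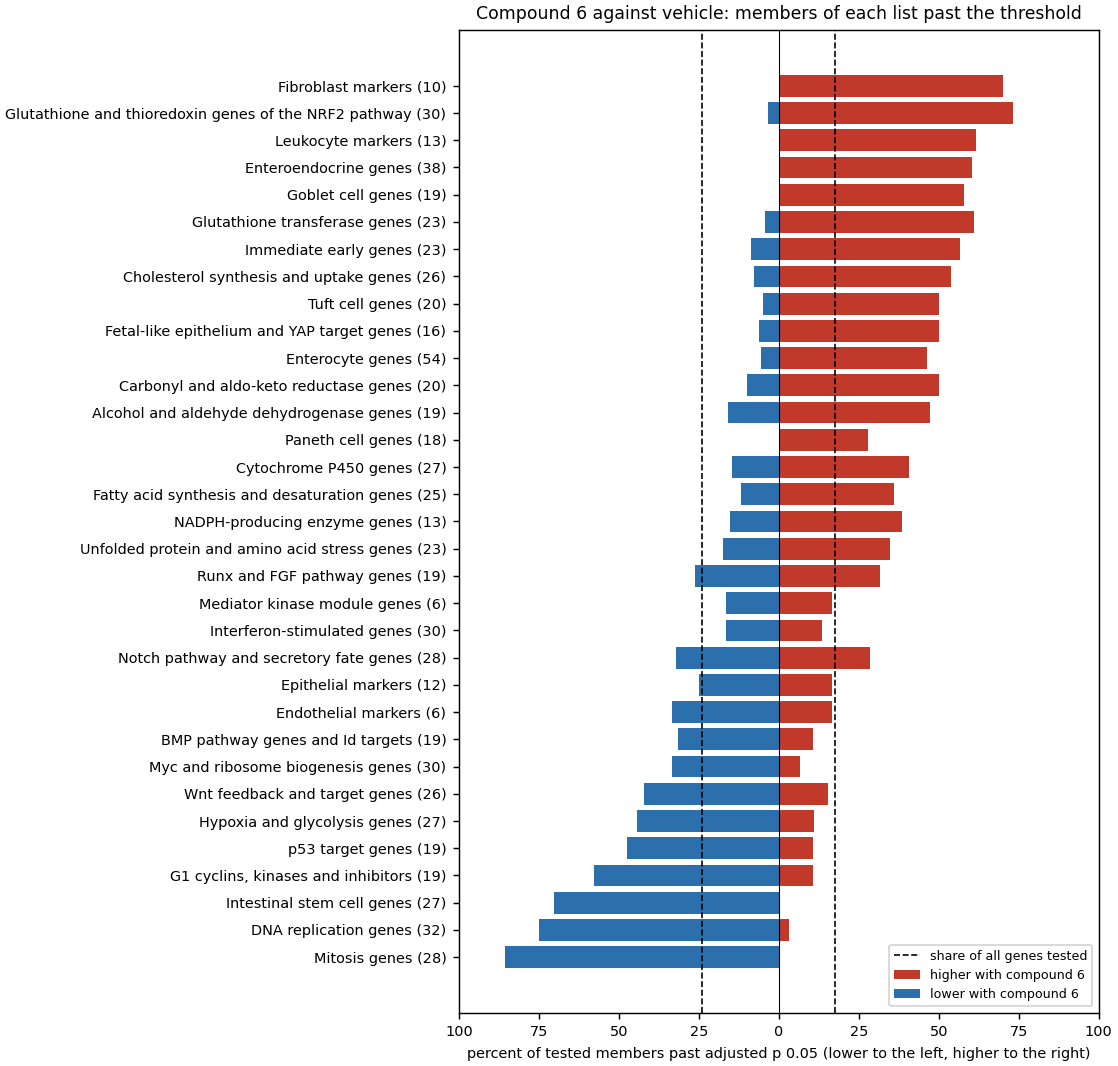
Percent of tested members of each gene list (number tested in brackets) past an adjusted p of 0.05 between compound 6 and vehicle, higher members to the right and lower members to the left; dashed lines mark the shares over all genes tested (17.4% and 23.9%). Mitosis, DNA replication and stem cell genes reach farthest to the left and NRF2-pathway genes farthest to the right.

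The chart of list shares reads each list against the background of this comparison, in which 41.3% of all genes passed. At the mitosis end 24 of 28 members fell and 0 rose. Interferon-stimulated genes, with 4 of 30 higher and 5 lower, had a share of calls (30.0%) below the background.

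Scd1, the delta-9 desaturase that makes oleic acid, had 3.82, 3.81, 4.10 and 4.05 with compound 6, against 2.16, 2.11, 2.34 and 2.09 with vehicle. All compound 6 arrays were higher and the letters gave 1.66 to 1.96, with a mean of 1.77 ± 0.07 (adjusted p = 3.63e-10). Scd3 rose by 1.41 ± 0.12 (0.59 at its other probe), the elongase Elovl6 by 0.82 ± 0.06 and Dgat2, which makes triglyceride, by 0.67 ± 0.07. Acetyl-CoA carboxylase, Acaca (-0.18 ± 0.07), and fatty acid synthase, Fasn (-0.31 ± 0.10), fell, though neither passed without the block. In all, 9 of 25 fatty acid genes rose, 3 fell and 13 did not pass (7 rose and 6 fell without letter F). That is 48% called, against 41.3% of all genes. Of 26 cholesterol genes, 14 rose, 2 fell and 10 did not pass (9 rose and 1 fell without the block), with a median of 0.17. Except for Insig2, which retains SREBP in the endoplasmic reticulum (0.75 ± 0.07; 0.33 at its other probe), the rises were 0.48 or less. Of 27 cytochrome P450 genes, 11 rose, 4 fell and 12 did not pass (55.6% called), and 9 rose and 1 fell with the deposited matrix. The drug-metabolising genes Cyp3a11 (1.26 ± 0.13) and Cyp3a25 (1.16 ± 0.15) rose, and Cyp2c70, a bile acid hydroxylase, fell by 0.79 ± 0.12. Both rises were lost with the deposited matrix (Cyp3a11 0.31, adjusted p = 0.293, and Cyp3a25 1.40, adjusted p = 0.127) and with the scanner's log ratio (0.23, adjusted p = 0.443, and 0.51, adjusted p = 0.481).

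Of 26 Wnt feedback and target genes, 11 fell, 4 rose and 11 did not pass (57.7% called), with a median change of -0.062. Without the block 11 fell and 2 rose, and without letter F 12 fell and 3 rose. Sp5, a direct beta-catenin target that encodes a transcription factor (chr2:70315688-70315747), had 3.47, 3.60, 2.25 and 4.16 with compound 6, against 5.20, 5.12, 4.55 and 5.63 with vehicle. The arrays did not overlap and the change was -1.76 ± 0.16 (adjusted p = 1.22e-06). It was -0.39 (adjusted p = 0.594) with the deposited matrix and -0.60 (adjusted p = 0.392) with the scanner's log ratio, and its reference channel was above background on 3 of 8 arrays. Rnf43, a ligase that removes Wnt receptors, had 2.38, 2.59, 1.73 and 2.68 with compound 6 and 3.71, 3.53, 3.04 and 3.63 with vehicle, a change of -1.13 ± 0.09 (adjusted p = 4.05e-07), again without overlap. Axin2, the most used Wnt reporter gene, had -0.23, -0.16, -0.66 and -0.07 with compound 6 and 0.84, 1.15, 0.24 and 0.99 with vehicle (-1.08 ± 0.13). It was above background on 1 compound 6 array and 4 vehicle arrays, so the size is uncertain. It was -3.22 with the deposited matrix, and its other probe fell by 0.41. Lef1 fell by 0.89 ± 0.09. Tcf7 was not well above background on any compound 6 array and was at least 1.63-fold lower with compound 6 (adjusted p = 4.62e-06), and its other probe, at -0.18, did not pass.

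Other targets of the same list went the other way or did not pass. Notum, a secreted Wnt deacylase, rose by 0.39 ± 0.07, and Ephb3, a receptor that sorts crypt cells, by 0.29 ± 0.06 (0.18, adjusted p = 0.286, with Cy3 alone). Cd44 (0.13), Ephb2 (-0.02) and Nkd1 (0.03) did not pass. Myc had -1.29, -1.29, -1.57 and -1.04 with compound 6, against -0.90, -0.72, -2.12 and -0.97 with vehicle. Its change was -0.12 with an interval of -0.47 to 0.22 (adjusted p = 0.579), since it was lower in letters D, E and G by 0.07 to 0.57 and higher in letter F by 0.55, and it passed as lower with letter F left out. Ctnnb1, the endogenous beta-catenin gene, had 0.72, 0.70, 0.78 and 0.70 with compound 6, against 0.66, 0.75, 0.82 and 0.82 with vehicle (-0.04, interval -0.14 to 0.06). The TCF/LEF letters CTTTGAT were found in the promoters of 1 of 18 stem cell genes in the table (5.56%), Tnfrsf19, against 3.72% of all genes. They were found in 3 of the 18 Wnt-list genes in the table (16.7%). Of these Sp5, shown here with the site in capitals from -104 relative to the start (chr2:70474673-70474922, plus strand, GRCm38.p6), and Tnfrsf19 fell, and Mmp7 rose (0.62 ± 0.15; not past the threshold without the block, with the scanner's log ratio or with the deposited matrix).
Sp5: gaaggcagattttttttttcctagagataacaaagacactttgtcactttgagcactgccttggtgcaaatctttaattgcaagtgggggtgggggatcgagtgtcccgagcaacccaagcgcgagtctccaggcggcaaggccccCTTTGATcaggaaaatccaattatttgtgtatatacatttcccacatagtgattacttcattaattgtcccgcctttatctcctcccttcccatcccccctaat

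Intestinal stem cell genes fell or did not pass. Of 27 tested, 19 fell, 0 rose and 8 did not pass (70.4% called), with a median change of -0.52, or -0.71 with letter F left out. Ascl2, the transcription factor of the crypt-base stem cell programme (chr7:150152734-150152793), had 2.16, 2.19, 0.69 and 2.57 with compound 6, against 4.49, 4.37, 3.29 and 4.44 with vehicle. It fell in each letter, by 1.87 to 2.61, and its mean change was -2.25 ± 0.20 (4.75-fold lower; adjusted p = 9.2e-07). Lgr5, the R-spondin receptor that marks these cells (chr10:114887403-114887462), behaved otherwise. It had 1.40, 1.13, 0.79 and 1.17 with compound 6, against 4.24, 4.16, 1.00 and 3.71 with vehicle. The letter differences were -2.84, -3.03, -0.22 and -2.54, so the mean of -2.16 ± 0.38 (adjusted p = 0.000397) rests on letters D, E and G. Its reference channel was above background on 0 of 8 arrays, and the call was lost with the deposited matrix (-2.58, adjusted p = 0.284). Olfm4, another crypt-base marker, was above background on 0 compound 6 and 3 vehicle arrays and was at least 1.12-fold lower with compound 6.

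The potassium channel genes Kcnq1 (-1.17 ± 0.13) and Kcne3 (-1.33 ± 0.19), whose products form a channel in crypt cells, fell in all 4 letters. With the deposited matrix they had -0.43 (adjusted p = 0.0297) and -0.44 (adjusted p = 0.832), and with the scanner's log ratio -0.45 (adjusted p = 0.0248) and -0.51 (adjusted p = 0.463). Also lower in all 4 letters were Sox9, a progenitor and Paneth cell factor (-1.24 ± 0.16), Cdca7 (-1.64 ± 0.18), Tnfrsf19 (-1.51 ± 0.15; its other probe -0.17), and Bmi1, a Polycomb gene (-0.62 ± 0.06). The chloride transporter Slc12a2 had 0.16, 0.15, -0.68 and 0.42 with compound 6, against 1.77, 1.82, -0.48 and 1.61 with vehicle, a change of -1.16 ± 0.25 to which letter F gave only -0.20. Members that did not pass included Prom1 (-0.03), Msi1 (0.14) and Smoc2 (-0.45).

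Replication and mitosis genes were lower with compound 6 in letters D, E and G and level in letter F. Of 32 replication genes, 24 fell, 1 rose and 7 did not pass, with a median of -0.67, or -0.87 without letter F. Of 28 mitosis genes, 24 fell and 0 rose, with a median of -0.65, or -0.90 without letter F. The median mitosis level was -2.32, -2.42, -3.59 and -3.11 on compound 6 arrays D to G, against -1.69, -1.61, -3.65 and -1.79 on the vehicle arrays. The vehicle array of letter F was thus lower than all 4 compound 6 arrays. The letter medians of the change were -0.61, -0.85, 0.10 and -1.30, and without the letter block only 3 mitosis genes passed, all lower. Arrays of a slide were not all of the same letter. The within-slide mitosis median was 0.30 for compound 6 D against vehicle D and F. It was -1.14 for compound 6 E and G against vehicle E, and -1.64 for compound 6 F against vehicle G. The last value sets the low letter F culture against a vehicle array of another letter, so it is not free of letter F.

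**Figure D3:**
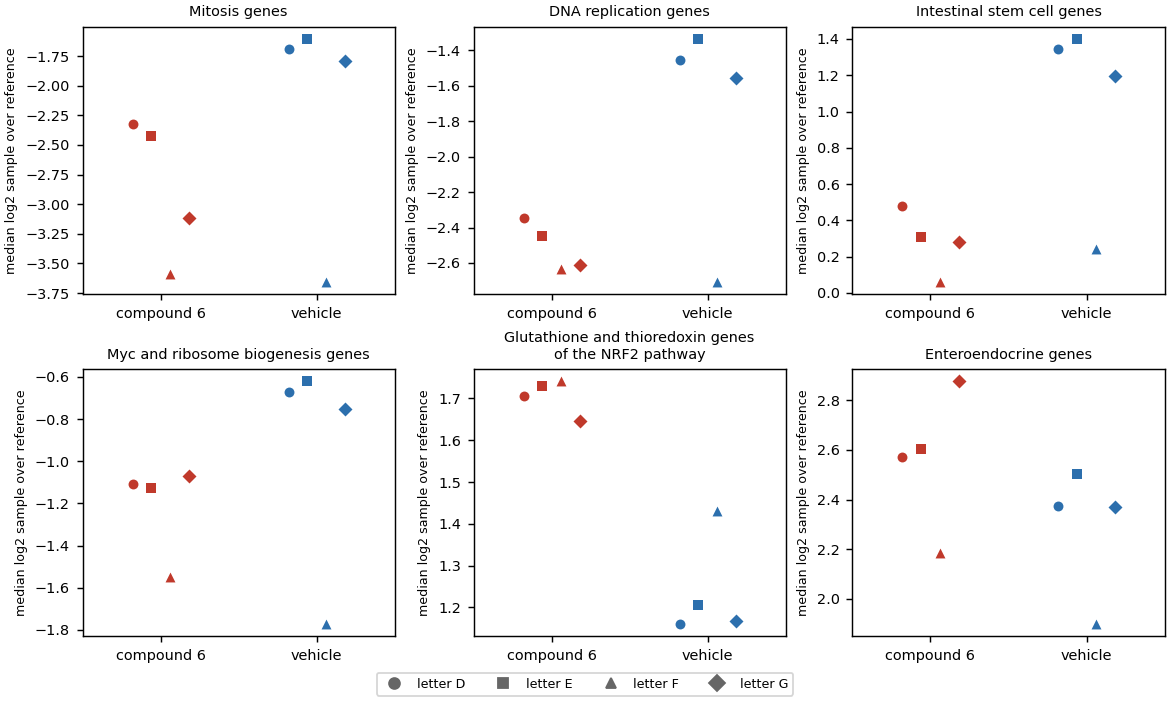
Median level of 6 gene lists (log2 sample over reference, y axis; the scale differs between panels) on each compound 6 array (red) and each vehicle array (blue, to the right), with a symbol for each letter. The vehicle triangle, letter F, lies at -3.65 for mitosis genes beside compound 6 arrays at -3.59 to -2.32, but for NRF2-pathway genes all vehicle arrays, at 1.16 to 1.43, lie below all compound 6 arrays.

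The panels of list levels set 2 kinds of list side by side. The median change was 0.48 with letter F and 0.49 without it for NRF2-pathway genes, and 0.43 and 0.40 for enteroendocrine genes. For the other lists shown the median fell further without letter F. Mki67, the standard marker of dividing cells, had -2.93, -3.11, -5.16 and -4.20 with compound 6, against -1.82, -2.06, -4.93 and -1.89 with vehicle. Letter F was the lowest array in both groups, and the change was -1.17 ± 0.25 (adjusted p = 0.00155; not past the threshold without the block). Uhrf1, which guides the copying of DNA methylation, had -4.03, -4.15, -5.15 and -4.80 with compound 6, against -1.82, -1.64, -4.93 and -1.94 with vehicle (-1.95 ± 0.31). Rrm2, which makes deoxynucleotides (-1.73 ± 0.29), the primase gene Prim1 (-1.58 ± 0.26) and the helicase subunit gene Mcm4 (-1.44 ± 0.24) showed the same pattern over the arrays. Mcm10 fell by 0.99 ± 0.12 with no overlap. Pcna, the sliding clamp, was the member that rose, by 0.57 ± 0.13, with the largest difference in letter F (1.27).

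Of 19 G1 regulators, 11 fell, 2 rose and 6 did not pass. Ccnd2 had -0.42, -0.52, -1.65 and -0.10 with compound 6, against 1.09, 1.21, -0.73 and 1.17 with vehicle, and fell in each letter (-1.36 ± 0.17; adjusted p = 2.67e-05). Cyclin E1, Ccne1, had -1.98, -1.84, -2.06 and -2.21 with compound 6 and -0.39, -0.23, -2.13 and -0.31 with vehicle (-1.25 ± 0.22), with no difference in letter F (0.07). Ccnd1 fell by 0.82 ± 0.20 and E2f1 by 0.97 ± 0.16. The inhibitors of CDK4 and CDK6 split: Cdkn2b rose by 0.96 ± 0.08 and Cdkn2a by 0.32 ± 0.08, while Cdkn2c (-0.56 ± 0.11; not past the threshold without the block) and Cdkn2d (-0.37 ± 0.07) fell. Cdkn1a, the p21 gene, did not pass (0.12), and its other probes, dimmer, had 0.22 and -0.34. Of 19 p53 targets, 2 rose and 9 fell (1 and 4 without the block), among them Tnfrsf10b, a death receptor (-0.71 ± 0.06). Mdm2 rose by 0.29 ± 0.06 and Pmaip1 by 0.60 ± 0.08, which did not pass without the block.

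Myc and ribosome biogenesis genes had a share of calls near the background. Of 30, 10 fell, 2 rose and 18 did not pass (40.0%), with a median of -0.19. Without the block 3 fell and 0 rose. Without letter F 20 fell and 2 rose, with a median of -0.35, while in letter F the median difference was 0.16. Ncl (-0.79 ± 0.15), the nucleolin gene, and Npm1 (-0.56 ± 0.12) fell. The other probe of Ncl, at -0.10, did not pass, and Npm1 did not pass without the block (adjusted p = 0.111). Mycn rose: it had 2.30, 2.19, 0.39 and 1.75 with compound 6, against 1.06, 1.22, -0.14 and 0.74 with vehicle, so that each letter was higher with compound 6 (0.94 ± 0.10; adjusted p = 3.6e-06) although the groups overlapped through letter F. Mycn did not pass without the block.

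**Figure D4:**
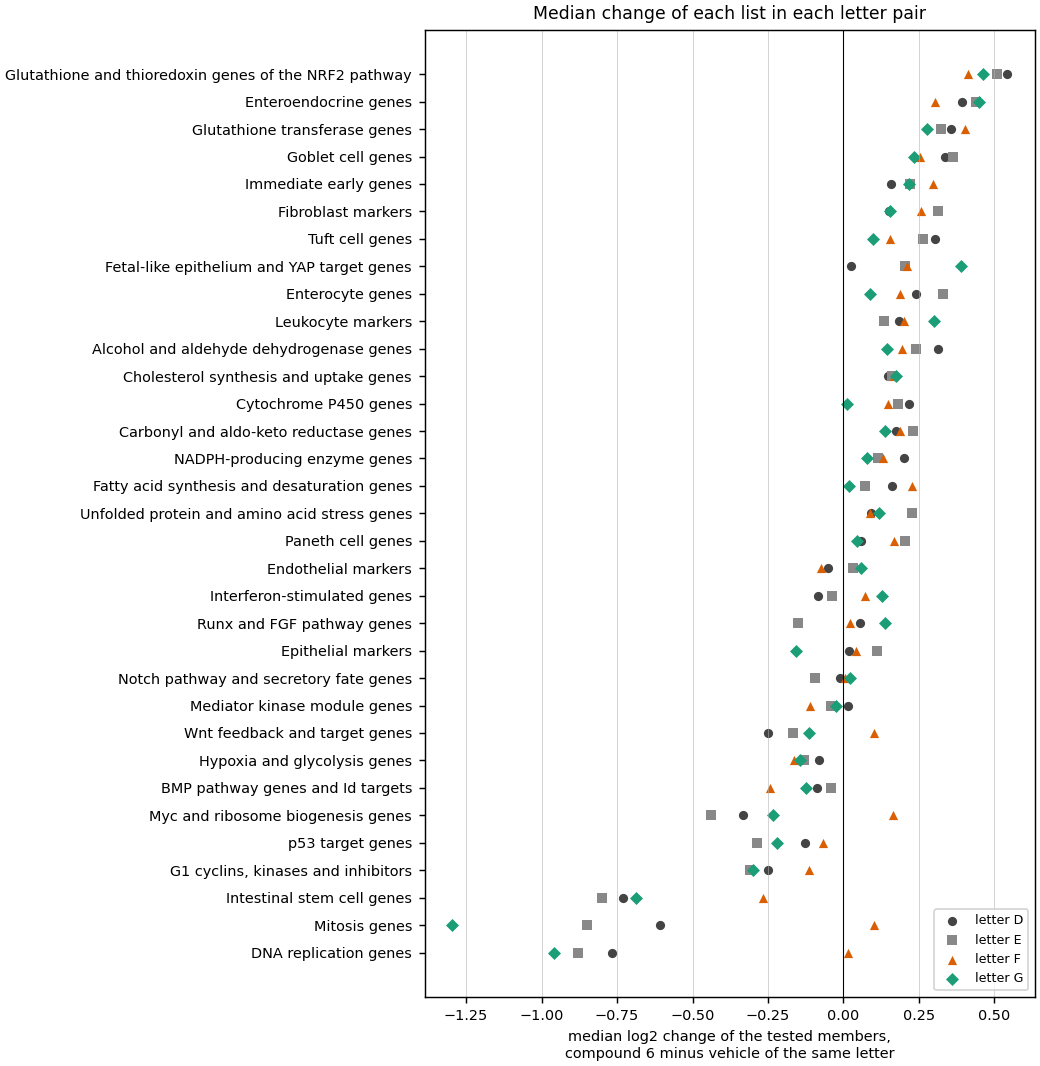
Median log2 change of the tested members of each gene list, compound 6 minus vehicle of the same letter (x axis), for each letter (symbols), lists ordered by their median over all letters. Mitosis genes lie at -0.61 in letter D, -0.85 in E, 0.10 in F and -1.30 in G, whereas NRF2-pathway genes lie at 0.41 to 0.54 in all 4 letters.

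The plot of letter medians orders the lists by the size of their shift and shows which ones letter F left out. Stem cell genes kept a negative median in every letter (-0.27 in letter F, and -0.80 to -0.69 in the others). The medians of enteroendocrine and goblet genes were above 0 in every letter.

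Enteroendocrine genes rose or did not pass. Of 38, 23 rose, 0 fell and 15 did not pass (60.5%), with a median of 0.43 and letter medians of 0.30 to 0.45. The count of rises was 19 without the block and 26 without letter F, but 15 with the scanner's log ratio and 11 with the deposited matrix, whose median was 0.25. Among transcription factors of the lineage, Neurog3, which starts it, had 5.51, 5.51, 5.00 and 5.52 with compound 6, against 4.03, 4.29, 3.43 and 4.09 with vehicle. All compound 6 arrays were higher, and the change was 1.42 ± 0.10 (adjusted p = 1.63e-07). Insm1 (1.00 ± 0.11), Pax4 (0.92 ± 0.09) and Neurod1 (0.65 ± 0.08) followed, of which Insm1 and Pax4 did not pass without the block. In the deposited matrix Pax4 had a change of 0.05 (adjusted p = 0.848) and Neurod1 of -0.23 (adjusted p = 0.798), and with the scanner's log ratio they had 0.02 (adjusted p = 0.932) and -0.09 (adjusted p = 0.901). Among hormones, Gcg, the proglucagon gene, had 5.41, 5.43, 4.57 and 5.37 with compound 6, against 3.79, 3.73, 1.95 and 3.59 with vehicle (1.93 ± 0.15; adjusted p = 2.53e-07). Its reference channel was above background on 3 of 8 arrays, and its change was -0.32 (adjusted p = 0.581) in the deposited matrix and 0.04 (adjusted p = 0.922) with the scanner's log ratio. Pyy rose by 0.80 ± 0.15 (0.62, adjusted p = 0.272, with the deposited matrix) and Gast by 0.72 ± 0.09, while Cck (0.06), Gip (0.14) and Nts (0.57; adjusted p = 0.126) did not pass. Of granule genes, Scg2 (1.46 ± 0.11) and the prohormone convertase gene Pcsk1 (1.44 ± 0.21) rose, and Chga (0.18) and Chgb (0.08) did not pass. Scg2 (2.56, adjusted p = 0.0629) and Pcsk1 (1.27, adjusted p = 0.401) did not pass with the deposited matrix, and their reference channels were above background on 1 and 0 of 8 arrays.

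Several secretory fate genes of the Notch list rose as well. Dll4, a Notch ligand, had 2.60, 1.93, 2.47 and 2.38 with compound 6, against 1.18, 1.18, 1.36 and 1.08 with vehicle (1.14 ± 0.11). Atoh1, the master factor of secretory cells, had 4.86, 4.78, 3.88 and 4.69 with compound 6, against 3.62, 3.25, 3.83 and 3.29 with vehicle. It was higher in letters D, E and G by 1.24 to 1.52 and level in letter F (0.05), with a mean of 1.05 ± 0.21 (adjusted p = 0.00088), and its reference channel was above background on 0 of 8 arrays. Gfi1 (0.95 ± 0.08) and Spdef (0.82 ± 0.10), which act after it, rose. The Notch target Hes1 did not pass (0.05) and Hes5 fell by 0.56 ± 0.15. Over the Notch list, 8 of 28 rose, 9 fell and 11 did not pass (7 rose and 5 fell without the block).

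Goblet cell genes rose in 11 of 19, and 0 fell (6 rose without the block), with the mucin Muc2 at 0.32 ± 0.08 (-0.02 with the scanner's log ratio and 0.05 with the deposited matrix, neither past the threshold), the disulfide isomerase Agr2 at 0.42 ± 0.06, and Tff3 (0.02) not passing. Of 18 Paneth cell genes, 5 rose and 13 did not pass (27.8%, below the background; 9 rose with Cy3 alone), among the latter the lysozyme gene Lyz1 (-0.10). Tuft cell genes rose in 10 of 20 and 1 fell (55% called), Rgs13, with changes of -1.02 to -0.66 over the alternative settings. Without the block 1 rose, Cd24a (0.69 ± 0.07 with the block), and 1 fell. Trpm5 (-0.05), a cation channel gene that marks tuft cells, did not pass. Of 54 enterocyte genes, 25 rose, 3 fell and 26 did not pass (51.9% called, against 41.3% of all genes), with a median of 0.19. Without the block 13 rose and 2 fell. The peptidase Enpep (1.03 ± 0.10) and lactase, Lct (0.97 ± 0.14), rose. With the scanner's log ratio they had 0.24 (adjusted p = 0.323) and 0.18 (adjusted p = 0.168), and with the deposited matrix 0.29 (adjusted p = 0.237) and 0.30 (adjusted p = 0.0145). The brush border markers Alpi (0.14), Sis (0.11) and Vil1 (0.14) did not pass.

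Runx1 and Fgf18 stood apart from the rest of their pathway. Of 19 Runx and FGF genes, 6 rose, 5 fell and 8 did not pass, with a median of 0.002. Cbfb, the partner of RUNX factors, rose by 0.27 ± 0.09 but did not pass without the block or without letter F. Runx3 (0.00) did not pass, and Runx2 was not well above background on any of the 8 arrays. Among FGF receptors, Fgfr4 had 0.72, 0.79, 0.64 and 1.06 with compound 6, against 2.24, 2.22, 1.29 and 2.18 with vehicle (-1.18 ± 0.17). Fgfrl1, a receptor without a kinase domain, fell by 1.21 ± 0.10, Fgfr1 rose by 0.46 ± 0.08 and Fgfr3 by 0.40 ± 0.06, but other probes of Fgfr1 (0.21 and -0.01) and Fgfr3 (0.04) did not pass. The FGF-responsive factor Etv4 fell by 0.82 ± 0.19, and Dusp6, an ERK phosphatase, rose by 0.51 ± 0.06.

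Of 23 immediate early genes, 13 rose, 2 fell and 8 did not pass, with a median of 0.25. Dusp4, a phosphatase of MAP kinases, had -0.53, -0.24, 0.52 and -0.03 with compound 6, against -1.42, -1.42, -0.67 and -1.13 with vehicle (1.09 ± 0.09). Nr4a1 rose by 0.62 ± 0.07 and Fos by 0.51 ± 0.08, but Egr1 fell by 0.62 ± 0.13, and neither Fos nor Egr1 passed without the block. Of 16 genes of fetal-like epithelium and YAP activity, 8 rose and 1 fell (56.2% called), or 3 and 0 without the block. Among those that rose were the EGFR ligand Areg (0.86 ± 0.10, adjusted p = 0.0556 without the block) and Ly6a, the Sca-1 gene (0.54 ± 0.07). Of 27 hypoxia and glycolysis genes, 12 fell and 3 rose (3 and 3 without the block, and 6 and 3 with Cy3 alone). That is 55.6% called, against 41.3% of all genes. Hif1a rose by 0.76 ± 0.14 (0.35 at its other probe). Of its targets, Ankrd37 (-1.26 ± 0.14), Bnip3 (-0.57 ± 0.09, adjusted p = 0.053 without the block) and Ldha (-0.47 ± 0.07) fell. Pfkfb3 of the same list rose by 0.68, while its other probe, at 0.17, did not pass.

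Of 23 unfolded protein and amino acid stress genes, 8 rose and 4 fell (3 and 2 without the block). That is 52.2% called, against 41.3% of all genes. Trib3 fell by 0.76 ± 0.09 while the chaperone gene Hspa5 rose by 0.29 ± 0.05 (adjusted p = 0.187 without the block). Of 19 BMP genes, 6 fell and 2 rose (3 and 2 without the block), a share of calls (42.1%) near the 41.3% of all genes. Bmp7 was among those that fell (-0.89 ± 0.11). Id4 was above background on 3 compound 6 and 0 vehicle arrays and was at least 1.64-fold higher with compound 6. Among interferon-stimulated genes Irf1 rose by 0.58 ± 0.06 and Oas1a fell by 0.55 ± 0.07, and Isg15 (0.18) did not pass.

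In the Mediator kinase module the transcripts moved little. Of 6 tested, 1 rose, 1 fell and 4 did not pass. Cdk19 had -1.37, -1.36, -1.35 and -1.47 with compound 6, against -1.13, -0.92, -1.08 and -1.14 with vehicle, and fell without overlap (-0.32 ± 0.07; adjusted p = 0.00183). Cdk8 had 0.18, 0.00, 0.34 and 0.20 with compound 6, against -0.13, 0.04, 0.14 and 0.00 with vehicle. Its change of 0.17 ± 0.06 (adjusted p = 0.0243) did not pass without the block or without letter F. Ccnc (-0.13), Med12 (-0.08), Med13 (0.03) and Med13l (-0.02) did not pass. The arrays measured transcripts, and kinase activity was not analysed here.

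Some markers of other cell types moved with the treatment. Of 10 fibroblast markers, 7 rose and 0 fell (4 rose in a fit of the 8 arrays alone), with median levels of -4.56 to -4.35 on the compound 6 arrays and -4.67 to -4.53 on the vehicle arrays. Vim had -6.64, -6.72, -6.72 and -6.89 with compound 6 and -7.10, -7.17, -7.39 and -7.50 with vehicle, and Lum, Pdgfra and Des were below the detection filter. Of 13 leukocyte markers, 8 rose and 0 fell (5 rose in a fit of the 8 arrays alone), with median levels of -1.96 to -1.78 on the compound 6 arrays and -2.39 to -2.21 on the vehicle arrays. The largest was Csf1r, a macrophage receptor, at 1.05 ± 0.12, with 0.68 and 0.26 at its other probes, while Ptprc, the pan-leukocyte gene, did not pass (0.16). Of 6 endothelial markers, 1 rose and 2 fell, with median levels of 0.00 to 0.11 on the compound 6 arrays and -0.27 to 0.11 on the vehicle arrays, and Cdh5 and Emcn were below the filter. The part of these markers in the results was not tested.

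Compound 6 and the withdrawal of doxycycline were compared directly over letters D to G. This sets the compound beside the loss of the drug on which the transgene's activator depends. Their changes against vehicle share the vehicle arrays and are given side by side only. Of all genes, 7290 (34.1%) differed, 4154 higher with compound 6 (19.4%) and 3136 lower (14.7%), or 3209 (1561 and 1648) without the block. With the scanner's own log ratio 45.3% of the passing genes were higher, and with the Cy3 channel alone 41.5%, against 57% here, so the balance of directions depends on the normalisation. The largest positive differences from withdrawal were Runx1 (3.23 ± 0.11), Cypt9 (2.71 ± 0.16), Cyp2c55 (2.49 ± 0.22), Fgf18 (2.39 ± 0.10), Akr1b8 (2.29 ± 0.16) and Abpe, an androgen-binding protein gene (2.27 ± 0.21). The largest negative ones were Mup4 (-2.74 ± 0.17), Mup20, Mup3, Zmat4 (-2.34 ± 0.13), Mup5 and Mup9. With the deposited matrix Mup20 (-1.04), Mup3 (0.51), Zmat4 (-3.37), Mup9 (-3.12) and Cypt9 (3.87) did not pass. Against their own vehicle arrays, Runx1, Mup4 and Zmat4 changed by 3.08, -2.78 and -1.86 with compound 6, against -0.15, -0.04 and 0.48 after withdrawal.

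For Wnt targets the direct comparison separated genes. Sp5, whose fall against vehicle depends on the normalisation, did not differ past the threshold between compound 6 and withdrawal (-0.07 ± 0.16, adjusted p = 0.76). Rnf43 (1.15 ± 0.09), Ascl2 (0.94 ± 0.20) and Kcnq1 (1.00 ± 0.13) were higher with compound 6 than after withdrawal. Their changes against vehicle were -1.13, -2.25 and -1.17 with compound 6 and -2.29, -3.19 and -2.17 after withdrawal. Myc differed most among them: it was 1.96 ± 0.16 higher with compound 6 than after withdrawal (adjusted p = 6.86e-07), against vehicle -0.12 with compound 6 and -2.08 after withdrawal. Over the lists, 24 of 30 Myc and ribosome genes were higher with compound 6 than after withdrawal and 2 lower, and 12 of 26 Wnt genes were higher and 0 lower. Of the 30 NRF2-pathway genes, 18 were higher and 0 lower. Gclc had changes against vehicle of 2.94 with compound 6 and 1.23 after withdrawal, Cbr3 of 3.35 and 1.12, and Gsr of 1.31 and 0.10. Of 38 enteroendocrine genes, 21 were higher than after withdrawal and 1 lower.

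**Figure D5:**
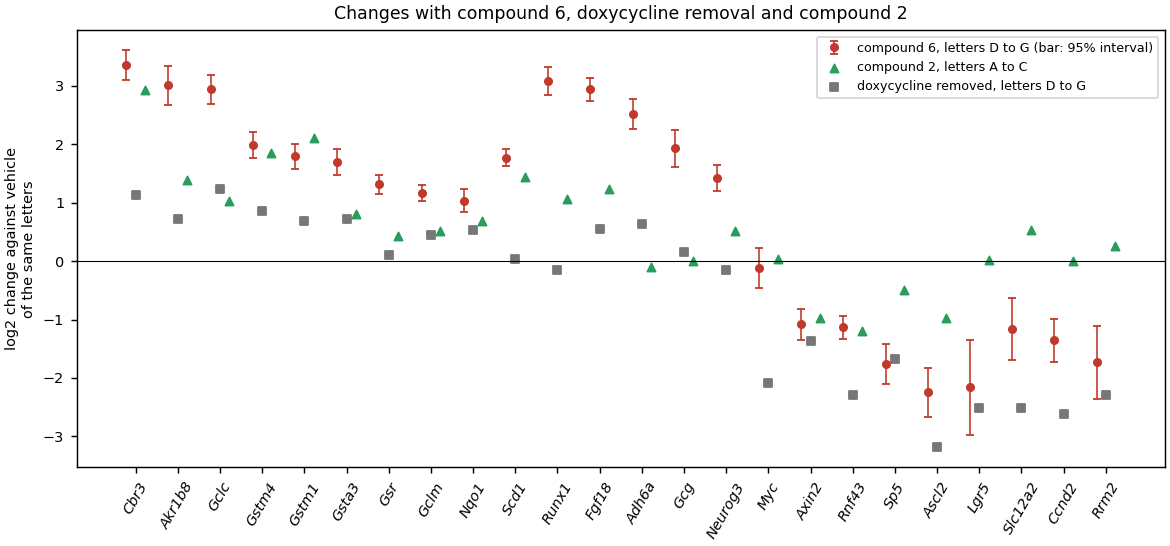
Log2 change against vehicle arrays of the same letters (y axis) for 24 genes with compound 6 (red circles, bars the 95% interval), compound 2 (green triangles) and after doxycycline removal (grey squares); compound 6 and removal share their vehicle arrays. Myc lies at -0.12 with compound 6 and at -2.08 after removal, and Gcg at 1.93 with compound 6 and at 0.00 with compound 2.

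The compounds were compared at the same dose and time, 1 pair, as compound 6 minus vehicle in letters D to G less compound 2 minus vehicle in letters A to C, with no array in common. Here 1968 genes (9.21%) differed, 972 higher (4.55%) and 996 lower (4.66%) with compound 6, and only 121 (74 and 47) without the block. The letters of the compounds differ, with set and scan day. With letter F left out 3396 genes differed, and with the vehicle array of letter D left out 1043, so this count rests on single arrays. The 49.4% of calls that were higher became 64.1% with the scanner's own log ratio, 67.8% with Cy3 alone and 64.9% with the deposited matrix.

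The largest positive differences were Adh6a (2.62 ± 0.19), Afp (2.09 ± 0.17), the retinol carrier gene Rbp4 (2.04 ± 0.21), Runx1 (2.02 ± 0.17), Gcg (1.93 ± 0.23) and Gclc (1.91 ± 0.17). For Gclc the changes against vehicle were 2.94 with compound 6 and 1.03 with compound 2 (0.96, 0.71 and 1.41 in letters A to C), and for Runx1 3.08 and 1.06. The largest negative differences were Osbpl1a, an oxysterol-binding protein gene (-2.47 ± 0.19), Smoc2 (-2.19 ± 0.41), the acute-phase gene Saa2 (-2.18 ± 0.19), Rrm2 (-1.98 ± 0.45), Spaca3 (-1.79 ± 0.16) and Slc12a2 (-1.69 ± 0.38). Gcg, Rbp4, Smoc2, Rrm2 and Slc12a2 did not pass without the block, and Adh6a, Gcg and Spaca3 were lost with the scanner's log ratio. Osbpl1a, Saa2 and Spaca3 had changes of -0.11, 0.15 and 0.19 with compound 6 and did not pass there (though another Osbpl1a probe fell by 0.31), against 2.36, 2.33 and 1.98 with compound 2. The reference channel was above background on 0 of the 8 arrays for Saa2 and Spaca3, and Saa2 was not well above background on any compound 6 or vehicle array of letters D to G.

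Many of the leading genes did not differ past the threshold between the compounds. Cbr3 changed by 3.35 with compound 6 and 2.93 with compound 2 (difference 0.42, 95% interval 0.03 to 0.81, adjusted p = 0.167). Gstm4 changed by 1.99 and 1.84 (difference 0.15, interval -0.20 to 0.49), Gstm1 by 1.79 and 2.11 (difference -0.32, interval -0.65 to 0.01) and Cyp3a41b by 2.20 and 2.09 (difference 0.11, interval -0.35 to 0.57). The Wnt target Rnf43 changed by -1.13 and -1.19 (difference 0.06, interval -0.24 to 0.36). The interval for Cbr3 still allows a difference of up to 0.81. Ascl2 (-1.28 ± 0.30) and Sp5 (-1.26 ± 0.24) were lower with compound 6 than with compound 2. The fall of Sp5 against vehicle was itself lost with the deposited matrix (-0.39) and the scanner's log ratio (-0.59). Lgr5, at -2.16 and 0.03 against vehicle, differed by -2.18 ± 0.58 (adjusted p = 0.0312). Of 32 replication genes, 17 were lower with compound 6 than with compound 2 and 0 higher. Of 38 enteroendocrine genes, 12 were higher and 1 lower, and of 30 NRF2-pathway genes 11 were higher and 1 lower. Of all genes, 4.55% were higher and 4.66% lower. These list counts were made with the block only, and without it only 121 genes differed in all.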

How the data were processed

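The series held 21 arrays, and the members and gene lists were chosen with earlier results of these data known. The authors scanned 2-colour arrays with Feature Extraction 10.7.3.1, per the file headers, and deposited a Cy3 intensity (sample) and a Cy5 intensity (reference RNA) per spot, with a log10 ratio of Cy5 over Cy3 made by the scanner software. The deposited series matrix held log2 ratios of sample over reference, a direction found by setting it against the scanner files. No dyes were swapped, so dye effects were not separated. Probe coordinates are those of mm9, per the file headers.

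From the intensities, limma 3.58.1 (R 4.3.3) was run with normexp background correction (offset 50) and loess within each array. Control spots were left out, spots of a probe averaged, and probes kept if their Cy3 signal stood well above background on 3 or more of the 21 arrays. The brightest probe stood for a gene name, which left 21372 genes, of which 14825 matched a RefSeq symbol. A linear model of group and letter was fitted to all 21 arrays, and tests were two-sided with Benjamini-Hochberg adjustment over all genes at 0.05. In data simulated for compound 6 minus vehicle, 50 genes of each size among 21372 were changed, with independent normal errors. Of log2 changes of 0.5, 1 and -1, 86%, 100% and 98% were recovered, and 5.42% of calls were unchanged genes. In the real data 41.3% of genes were called and the vehicle array of letter F stood apart, so these rates do not carry over to the real calls.

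The arrays were paired by letter. Deviations from group means correlated at 0.207 to 0.749 over 21 same-letter pairs, with a median of 0.528. Between letters the median was -0.179, but taking out the group means forces such values below the same-letter ones, so it adds no contrast. The letter was used as a replicate block. Genes were named by a rule: the 12 largest rises and falls that kept 1 direction in 4 letters, the 6 lowest adjusted p-values of each list, a short set named whatever its values, and the 6 largest differences each way from removal and from compound 2. Further list members were named after their values had been seen. Promoters came from RefSeq's table. Figures were drawn with matplotlib 3.10.9.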

Additional observations from a re-analysis of the deposited data

Results flagged for a closer look

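The vehicle array of letter F stood far from the other vehicle arrays in 8 of 33 list medians and 9 of 33 single genes examined, and a compound 6 array did so in 4 of 33 lists and 1 of 33 genes. Chance alone marks about 1 in 20 such groups. On the vehicle array of letter F the median level was -2.71 for DNA replication genes, with the other vehicle arrays at -1.56 to -1.34. It was -3.65 for mitosis genes (others -1.79 to -1.61), -1.38 for G1 regulators (others -0.896 to -0.821) and -1.77 for Myc and ribosome genes (others -0.751 to -0.622). It was 0.784 for NADPH enzymes (others 1.41 to 1.46), 1.97 for alcohol and aldehyde dehydrogenases (others 2.25 to 2.31) and 0.372 for Notch and secretory fate genes (others 0.73 to 0.769). The NRF2-pathway median was higher there, at 1.43 (others 1.16 to 1.21).

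Among genes on that array, Mki67 was at -4.93 (others -2.06 to -1.82), Uhrf1 at -4.93 (others -1.94 to -1.64), Lgr5 at 1 (others 3.71 to 4.24), Ascl2 at 3.29 (others 4.37 to 4.49), Pla2g5 at 0.185 (others 2.18 to 2.32) and Tspan12 at 3.2 (others 4.3 to 4.52). Akr1b8 was at -0.617 (others -2.06 to -1.95), Gda at 1.82 (others 1.28 to 1.31) and Nfe2l2 at 2.71 (others 2.16 to 2.19).

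On the compound 6 array of letter G the medians of glutathione transferase genes (3.64, others 3.89 to 3.93) and cytochrome P450 genes (4.47, others 4.74 to 4.79) stood apart. On the compound 6 array of letter F the Myc and ribosome median was -1.55 (others -1.13 to -1.07), the immediate early median was -1.13 (others -1.85 to -1.74) and Ctnnb1 was at 0.784 (others 0.702 to 0.715).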

How the results depend on the processing

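Without the replicate block 5306 genes passed against vehicle, 3209 against doxycycline removal and 121 between the compounds, with the blocked counts at 8827, 7290 and 1968. The count between the compounds was 1108 with the scanner's log ratio, 950 with Cy3 alone, 1052 with the deposited matrix and 3396 without letter F. Leaving out 1 array of compound 6 or vehicle gave 7285 to 9650 genes against vehicle, 5817 to 8003 against removal and 1043 to 3537 between the compounds, with 1125 without compound 6 array E and 1110 without vehicle array E. Every other alternative left the 3 counts within 1.5 times. Of 269 named genes, 231 passed against vehicle, 223 kept their direction in every setting and 144 also their side of the threshold; 51 calls were lost without the block. Against vehicle, directions turned with the scanner's log ratio for Cyp2d10 (-0.015, adjusted p = 0.951), Cdx2 (0.16, adjusted p = 0.381), Muc2 (-0.022, adjusted p = 0.859) and Neurod1 (-0.086, adjusted p = 0.901). With the deposited matrix they turned for Adh6a (-0.50, adjusted p = 0.7), Gcg (-0.32, adjusted p = 0.581), Cdx2 (0.20, adjusted p = 0.298), Mmp7 (-0.075, adjusted p = 0.892) and Neurod1 (-0.23, adjusted p = 0.798). With the mean over probes they turned for Cyp2u1 (-0.18, adjusted p = 0.0965) and Gstt1 (0.14, adjusted p = 0.0387). Against removal Mup3 turned with the matrix (0.51, adjusted p = 0.0983). Between the compounds Gcg (-0.093) and Spaca3 (0.036) turned with the scanner's log ratio, and Adh6a (-0.53) and Gcg (-1.36) with the matrix. The cause was not tested. A reference channel at background limits the ratios of the genes named with it.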
